A study of Homo sapiens with 18 samples.

Results

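The 10 genes described here encode the receptors for retinoic acid (RARA, RARB and RARG), their heterodimer partners (RXRA, RXRB and RXRG), both COUP-TF orphan receptors (NR2F1 and NR2F2), the germ cell nuclear factor NR6A1, and NRIP1, a corepressor that binds nuclear receptors. They were taken by symbol from a table of 37550 rows of human gene expression, and each symbol matched 1 row. Expression was measured by RNA-seq of polyadenylated RNA in 18 libraries of H1, an established, wild-type human embryonic stem cell line, in 9 groups of 2 libraries labelled biological replicates. The series title concerns a pair of parallel neural ectoderm populations that contribute to the brain, and the design compares cells of both origins before and after they were placed in media for different brain regions.

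The groups were undifferentiated stem cells at day 0 (hPSC), anterior neural ectoderm at day 2 (aNE) and posterior neural ectoderm at day 2 (pNE). At day 4 there were cells of each origin in forebrain medium (aNE_T and pNE_T), midbrain medium (aNE_M and pNE_M) and hindbrain medium (aNE_H and pNE_H). All differentiating cells spent day 1 in a medium with the TGF-beta receptor inhibitor A8301 at 1 µM, the MEK inhibitor trametinib at 250 nM, C59 at 1 µM, a porcupine inhibitor that stops WNT secretion, and the BMP receptor inhibitor LDN193189 at 100 nM. On day 2 both origins kept A8301 and LDN193189 and received thiazovivin at 1 µM, and aNE also kept C59. The pNE medium instead held TTNPB, a synthetic agonist of the retinoic acid receptors, at 50 nM, together with FGF2 (20 ng/mL) and XAV939 (1 µM), an inhibitor of tankyrase and thus of WNT signalling. The effects of adding these 3 agents and of leaving out C59 cannot be told apart. The forebrain medium held XAV939 at 1 µM, LDN193189 at 100 nM and FGF2 at 20 ng/mL; its remaining content and the midbrain and hindbrain media are not given in the sources used here, so whether a retinoid was present after day 2 is not known here. Plating density was 37500 cells per cm2 for the day-2 groups. For the day-4 groups it was 75000 for aNE and 150000 for pNE, so origin and plating density cannot be told apart at day 4.

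Retinoic acid receptors bind DNA as heterodimers with retinoid X receptors, at repeats of a short half-site. Without ligand they recruit corepressors, and with ligand they exchange these for coactivators. In the vertebrate embryo, retinoic acid made outside the early neural plate patterns the hindbrain and spinal cord, and enzymes of the CYP26 family break it down further forward. RARB is a classical target of retinoic acid through a response element in its own promoter. COUP-TFs bind the same kinds of repeat, often as repressors, and pattern the forebrain and other tissues.

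Because RARB carries such an element, the 250 bases before one of its start sites are shown here, from RefSeq on GRCh38.p14, chr3:25428013-25428262, plus strand, 5′ to 3′. Capitals mark both half-sites of a direct repeat.

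RARB promoter: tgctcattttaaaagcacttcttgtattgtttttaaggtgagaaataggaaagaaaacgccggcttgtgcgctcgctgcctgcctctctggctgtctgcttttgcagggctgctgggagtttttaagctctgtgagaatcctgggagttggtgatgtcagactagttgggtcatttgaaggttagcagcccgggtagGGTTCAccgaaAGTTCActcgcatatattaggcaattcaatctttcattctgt

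The repeat, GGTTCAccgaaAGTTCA, lies at chr3:25428210-25428226, 53 to 37 bases before the start site at 25428263, and its half-sites are 5 bases apart. The search used the half-site AGGTCA, or AGTTCA, or GGGTCA, or GGTTCA, on both strands of 34943 RefSeq promoter windows of 300 bases (250 before and 50 after the start). A direct repeat with a spacer of 5 was found in 0.0887% of the windows. Spacers of 0, 1 and 2 bases were found in 0.157%, 0.132% and 0.0372% of windows. The 10 genes had 21 windows, and the RARB window above was the 1 that held any of these repeats. A single half-site, by contrast, was common: it was in 10 of the 21 windows and in 38.6% of all windows. RARB has 4 such windows and 8 transcripts in GENCODE v29, of which 2 start within 100 bases of the site shown. The deposited values are per gene, so they do not tell which start was used. A match of letters is a description, not evidence of binding.

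Values below are in TPM, a length-scaled share of a library's transcripts, and SDs are between the 2 libraries of a group. Tests are on log2(TPM + 1) in a limma fit to all 18 libraries, for the 17033 genes that reached 1 TPM in 2 or more libraries. A gene was called higher or lower at a Benjamini-Hochberg adjusted p under 0.05 and a log2 difference of at least 1. Of the 10 genes, 9 were tested and RXRG was too low. The scale understates changes of low genes, and TPM keeps no record of depth. P-values measure only spread between the 2 libraries of a group, pooled over the 9 groups and moderated across genes. All libraries come from 1 cell line. In a bulk culture, fewer cells of a type and less RNA per cell cannot be told apart.

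RARB was low in every anterior library and higher in every posterior one. Its gene spans chr3:25174332-25597932 on the plus strand of GRCh38 and overlaps exons of TOP2B on the opposite strand. It was at 0.105 and 0.134 TPM in hPSC, at 1.28 and 1.08 TPM in aNE, and at 21.4 and 20.0 TPM in pNE. RARB thus became a well-expressed gene at day 2 in the cells that had received TTNPB, and stayed near 1 TPM in the other origin. In pNE it was 17.5-fold above aNE (log2 difference 3.31 ± 0.15 SE, adjusted p = 1.24e-08). Against hPSC the log2 difference was 4.28 ± 0.15 for pNE (adjusted p = 2.64e-10) and 0.96 ± 0.15 for aNE (adjusted p = 2.23e-04), just under the fold needed for a call; with a pseudocount of 0.1 in place of 1 the aNE value was 2.55 (adjusted p = 1.83e-05).

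By day 4 RARB had separated further among the media. It was at 77.8 and 85.2 TPM in pNE_T, at 56.9 and 65.5 TPM in pNE_H, and at 4.48 and 5.16 TPM in pNE_M. In the aNE-derived cells it lay between 0.213 and 0.780 TPM in all 6 libraries. Cells of posterior origin therefore gained RARB in forebrain and hindbrain media and lost it in midbrain medium, while remaining above the anterior cells in each. Against pNE, RARB rose 3.94-fold in pNE_T (log2 1.93 ± 0.15, adjusted p = 6.79e-07) and 2.96-fold in pNE_H (1.52 ± 0.15, adjusted p = 4.66e-06), and was 4.30-fold lower in pNE_M (-1.90 ± 0.15, adjusted p = 5.38e-07). Between origins the log2 difference was 5.66 in forebrain medium (adjusted p = 3.26e-11), 1.98 in midbrain medium (adjusted p = 8.09e-07) and 5.53 in hindbrain medium (adjusted p = 5.08e-11). The neighbours pNE_T and pNE_H at the top of the order were not told apart by the test (adjusted p = 0.0818), although their libraries did not overlap. At the bottom, aNE_T and aNE_M overlapped, as did aNE_M and aNE_H.

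RARA, a retinoic acid receptor found in most tissues, followed the same origin split on a high baseline. It lies at chr17:40309192-40357643 on the plus strand and overlaps exons of RARA-AS1 and AC080112.3 on the opposite strand. RARA was at 19.4 and 18.9 TPM in hPSC, at 19.9 and 17.1 TPM in aNE, and at 34.5 and 49.1 TPM in pNE. At day 4 it was at 79.0 and 86.2 TPM in pNE_T, 40.6 and 44.1 TPM in pNE_M and 91.7 and 82.0 TPM in pNE_H. The aNE-derived cells had 25.2 and 24.8 TPM in aNE_T, 15.5 and 15.5 TPM in aNE_M, and 20.6 and 19.5 TPM in aNE_H. Every posterior library was above every anterior and stem cell library.

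RARA was 2.26-fold higher in pNE than in aNE (log2 1.12 ± 0.13, adjusted p = 8.13e-05) and 2.18-fold higher than in hPSC (1.07 ± 0.13, adjusted p = 3.58e-05). Both values lie near the fold threshold: without the second pNE library they were 0.87 and 0.82, under it, and with only the 4 libraries of pNE and aNE in the fit the first had an adjusted p of 0.108. Median-ratio scaling gave 0.99 and quantile normalization 0.97 for pNE against hPSC. At day 4 the ratio of pNE-derived to aNE-derived cells was 3.31 in forebrain medium (adjusted p = 7.64e-07), 2.73 in midbrain medium (adjusted p = 6.81e-06) and 4.33 in hindbrain medium (adjusted p = 1.42e-07). RARA rose 2.08-fold from pNE to pNE_H (log2 1.05 ± 0.13, adjusted p = 3.79e-05), but the log2 difference was 0.81 without the first pNE library and 0.98 without the first pNE_H library, and the adjusted p was 0.0529 with those 4 libraries alone. For pNE_T against pNE the log2 difference was 0.99 ± 0.13 (adjusted p = 8.32e-05), just under the fold threshold, and 1.23 without the second pNE library. RARA was 2.05-fold higher in pNE_H than in pNE_M (log2 1.02 ± 0.13, adjusted p = 1.10e-04), and this was 0.96 without the first pNE_M library and 0.94 without the first pNE_H library. In the order of the levels, pNE_H and pNE_T were not told apart by the test, nor were pNE_M and pNE, nor hPSC and aNE.

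RARG fell from day 2 to day 4 in forebrain and hindbrain media, in both origins. It lies at chr12:53210567-53232980 on the minus strand. RARG was at 52.4 and 55.1 TPM in hPSC, at 34.8 and 32.9 TPM in aNE, and at 33.0 and 40.7 TPM in pNE. Both day-2 groups lay below hPSC, and they overlapped each other. Against hPSC the log2 difference was -0.65 ± 0.17 for aNE (adjusted p = 0.00751) and -0.54 ± 0.17 for pNE (adjusted p = 0.0228). Both were under the fold threshold and uncalled. The test of pNE against aNE gave a log2 difference of 0.11 ± 0.17 (adjusted p = 0.745), and -0.033 without the second pNE library.

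At day 4 RARG was at 6.04 and 7.35 TPM in pNE_T and at 9.90 and 14.4 TPM in pNE_H, its lowest groups by mean. In pNE_M, in contrast, it was at 77.6 and 70.9 TPM, its highest. The aNE-derived cells were at 12.3 and 12.6 TPM in aNE_T, 22.0 and 24.2 TPM in aNE_M, and 17.1 and 12.6 TPM in aNE_H. The posterior cells thus spanned the whole range of the gene, and the anterior cells a middle part of it. RARG was 5.51-fold lower in pNE_T than in pNE (log2 -2.30 ± 0.17, adjusted p = 3.73e-07) and 3.04-fold lower in pNE_H (-1.54 ± 0.17, adjusted p = 1.11e-05). The comparison of pNE_M with pNE gave 1.00 ± 0.17 (adjusted p = 4.46e-04), which lay just under the fold threshold before rounding. Within the posterior origin RARG was 11.1-fold higher in pNE_M than in pNE_T (adjusted p = 1.13e-08) and 6.12-fold lower in pNE_H than in pNE_M (adjusted p = 2.55e-07).

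In the anterior origin RARG fell from aNE by 2.72-fold in aNE_T (log2 -1.37 ± 0.17, adjusted p = 4.24e-05) and by 2.28-fold in aNE_H (-1.15 ± 0.17, adjusted p = 1.92e-04). The second of these was -0.94 without the second aNE_H library. Between origins RARG was 3.22-fold higher in pNE_M than in aNE_M (log2 1.64 ± 0.17, adjusted p = 1.31e-05). In forebrain medium the difference was -0.81 ± 0.17 (adjusted p = 0.00343), under the fold threshold. In hindbrain medium the libraries of the origins overlapped, and the difference was -0.28 ± 0.17 (adjusted p = 0.284).

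**Figure D1:**
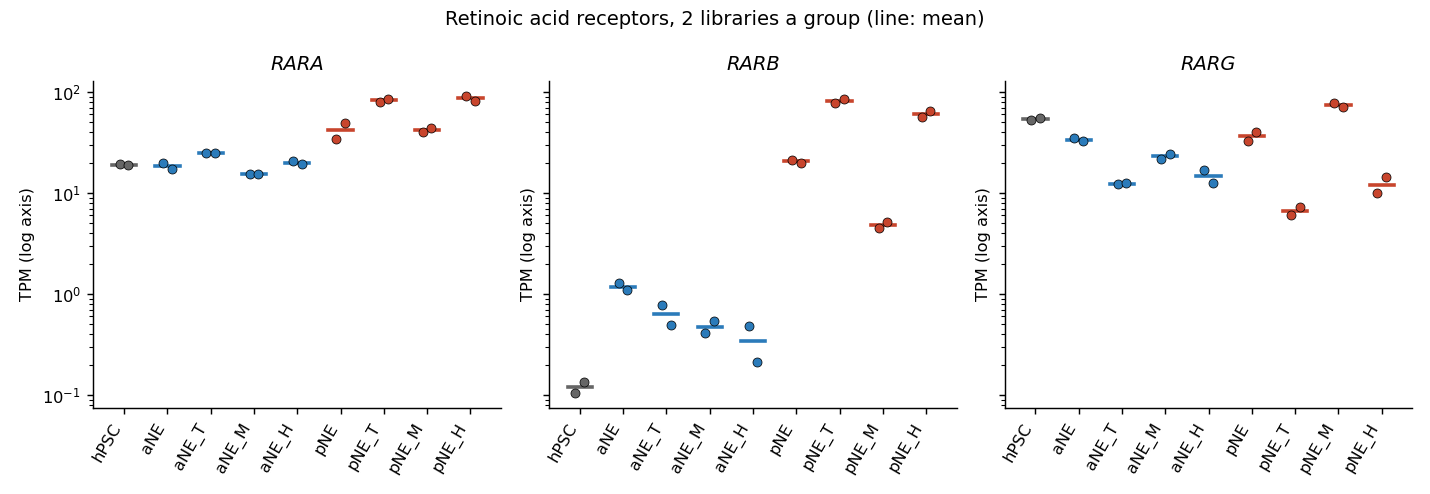
TPM of RARA, RARB and RARG in each of the 18 libraries by group. Points are libraries and lines are means of 2, with hPSC in grey, aNE-derived groups in blue and pNE-derived groups in red. RARB sits between 56.9 and 85.2 TPM in pNE_T and pNE_H and at 5.16 TPM or less in pNE_M and every aNE-derived library, and RARG is highest in pNE_M.

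Summed over the 3 genes, retinoic acid receptor mRNA was 73.0 ± 1.6 TPM in hPSC (SD, n = 2), 53.6 ± 3.4 in aNE and 99.4 ± 15 in pNE. It was 170.8 ± 11 TPM in pNE_T, 121 ± 1.8 in pNE_M and 160.2 ± 2.4 in pNE_H, against 38.1 ± 0.23 in aNE_T, 39.0 ± 1.6 in aNE_M and 35.3 ± 4.1 in aNE_H. The posterior cells thus held a larger pool in each medium, but with a different make-up. RARG was 73.6% of the pool in hPSC, 63.2% in aNE and 37.1% in pNE. In pNE_T the pool was 48.4% RARA, 47.7% RARB and 3.91% RARG, and in pNE_H it was 54.2%, 38.2% and 7.57%. In pNE_M it was 34.9% RARA, 3.97% RARB and 61.1% RARG, so RARG was the largest part there, as in hPSC and aNE. Among the aNE-derived cells RARB never passed 1.66% of the pool by group mean, and RARA was the largest part in aNE_T (65.7%) and aNE_H (57.1%) while RARG was in aNE_M (59.1%). These sums and shares are descriptions and were not tested.

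**Figure D2:**
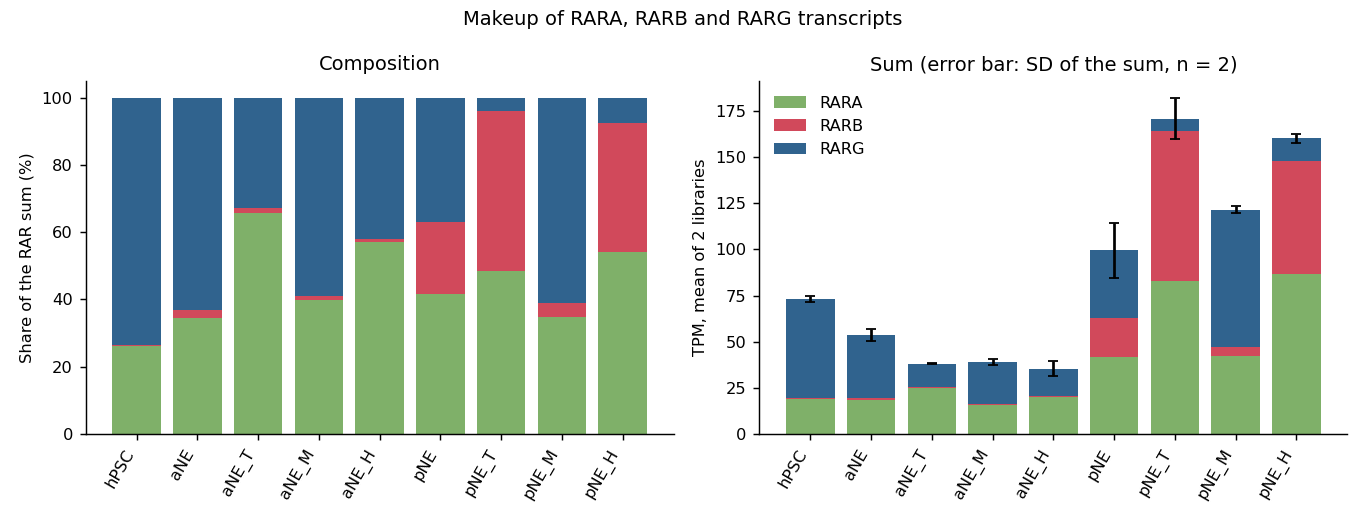
Share of summed retinoic acid receptor TPM (percent) held by RARA, RARB and RARG in each of the 9 groups, as means of 2 libraries. RARB takes 47.7% in pNE_T and 38.2% in pNE_H but 3.97% in pNE_M, where RARG takes 61.1%.

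The retinoid X receptors, the shared partners, moved little. RXRA lies at chr9:134317098-134440585 on the plus strand, and RXRB at chr6:33193588-33200688 on the minus strand, where it overlaps exons of SLC39A7 on the opposite strand. RXRA was lowest in hPSC, at 19.4 and 21.4 TPM, and highest in aNE_T, at 37.0 and 34.2 TPM. RXRB was likewise lowest in hPSC by mean, at 13.9 and 14.6 TPM, and highest in aNE_T, at 25.3 and 24.5 TPM. Neither gene passed both thresholds in any of the 36 pairs of groups or the 3 interactions.

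Some smaller differences had low adjusted p-values. RXRA was at 34.6 and 33.4 TPM in aNE and at 21.6 and 27.4 TPM in pNE. These values did not overlap, and the log2 difference of aNE against hPSC was 0.71 (adjusted p = 1.38e-04) while that of pNE against aNE was -0.47 ± 0.10 (adjusted p = 0.0092). RXRB was at 15.7 and 14.7 TPM in aNE_H, with a log2 difference of -0.68 ± 0.10 from aNE_T (adjusted p = 2.49e-04). It was at 14.5 and 14.5 TPM in pNE_M, against 23.8 and 24.5 TPM in pNE_T (-0.70 ± 0.10, adjusted p = 1.50e-04). RXRB was thus between 23.8 and 25.3 TPM in forebrain medium and at 19.0 TPM or less in the other media, for both origins.

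RXRG, the third member, lies at chr1:165400917-165445355 on the minus strand and reached at most 0.860 TPM, in a pNE library. It was listed at 0 in both hPSC libraries and in 1 library each of aNE_T, pNE_T and aNE_H. Its highest group mean was 1.77% of summed RXR mRNA, in pNE. The ratio of summed RAR to summed RXR TPM, a description that was not tested, was 2.11 ± 0.072 in hPSC, 0.998 ± 0.042 in aNE and 2.20 ± 0.078 in pNE. At day 4 it was 3.28 ± 0.14, 2.97 ± 0.074 and 3.77 ± 0.31 in pNE_T, pNE_M and pNE_H, and 0.630 ± 0.022, 0.860 ± 0.00097 and 0.848 ± 0.034 in aNE_T, aNE_M and aNE_H. The mean ratio was therefore under 1 in aNE and the aNE-derived groups, and 2.20 or more in pNE and the pNE-derived groups.

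The COUP-TFs separated the groups in a different way from the retinoic acid receptors. NR2F2 (COUP-TFII) lies at chr15:96325938-96340263 on the plus strand and overlaps the microRNA gene MIR1469 on the same strand. It was listed at 0 in both hPSC libraries, and was at 32.3 and 32.6 TPM in aNE and at 1.35 and 2.58 TPM in pNE. It was thus a gene of the anterior ectoderm at day 2, in the opposite direction to RARB. NR2F2 was 16.5-fold lower in pNE than in aNE (log2 -3.53 ± 0.23, adjusted p = 3.34e-07). It was called higher than hPSC in aNE (adjusted p = 3.24e-09) and in pNE (adjusted p = 1.66e-04).

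By day 4 NR2F2 had risen in all posterior groups. It was at 20.4 and 23.8 TPM in pNE_T, at 4.80 and 7.33 TPM in pNE_M and at 27.7 and 25.9 TPM in pNE_H. The increases from pNE were 11.2-fold in pNE_T (log2 2.99 ± 0.23, adjusted p = 5.65e-07), 3.09-fold in pNE_M (1.26 ± 0.23, adjusted p = 7.81e-04) and 13.7-fold in pNE_H (3.26 ± 0.23, adjusted p = 1.86e-07). Without the first pNE library the pNE_M value was 0.96, and with only the 4 libraries of pNE_M and pNE in the fit its adjusted p was 0.0835. In the aNE-derived cells NR2F2 was at 19.2 and 17.6 TPM in aNE_T, 20.7 and 13.4 TPM in aNE_M, and 59.7 and 47.6 TPM in aNE_H, and none of these was called against aNE. The gap between origins at day 2 was therefore much smaller at day 4: the log2 difference was 0.25 in forebrain medium (adjusted p = 0.519) and -0.97 in hindbrain medium (adjusted p = 0.00836), both uncalled. The hindbrain value was -1.13 (adjusted p = 0.0165) without the second aNE_H library. In midbrain medium pNE_M was 2.82-fold lower than aNE_M (-1.35 ± 0.23, adjusted p = 0.00102), although this had an adjusted p of 0.133 when only those 4 libraries were fitted. Within the anterior origin NR2F2 was 2.91-fold higher in aNE_H than in aNE_T (log2 1.49, adjusted p = 3.53e-04) and 3.14-fold higher than in aNE_M (1.62, adjusted p = 2.70e-04). The second of these had an adjusted p of 0.104 in the fit of 4 libraries.

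NR2F1 (COUP-TFI) appeared later than NR2F2. It lies at chr5:93583224-93594615 on the plus strand and overlaps exons of NR2F1-AS1 on the opposite strand. NR2F1 was listed at 0 in both hPSC libraries, at 0.0701 and 0.381 TPM in aNE and at 0.0278 and 0.0905 TPM in pNE. At day 2 it was therefore under 1 TPM in every library. At day 4 it was at 57.7 and 64.0 TPM in pNE_T, 9.74 and 11.1 TPM in pNE_M, and 18.1 and 15.0 TPM in pNE_H. In the aNE-derived cells it was at 0.659 and 0.422 TPM in aNE_T, 3.67 and 4.52 TPM in aNE_M, and 23.3 and 22.2 TPM in aNE_H.

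The origins differed in NR2F1 in forebrain and midbrain media. In forebrain medium it stood at 60.9 ± 4.4 TPM in pNE_T, with a log2 difference of 5.33 ± 0.16 from aNE_T (adjusted p = 1.07e-10). In midbrain medium pNE_M was 2.54-fold above aNE_M (1.16 ± 0.16, adjusted p = 2.20e-04; adjusted p = 0.0584 with those 4 libraries alone). In hindbrain medium the values of pNE_H lay below those of aNE_H, with a log2 difference of -0.44 (adjusted p = 0.075) that was not called. From day 2, NR2F1 rose in 5 of the 6 day-4 groups, by log2 2.06 in aNE_M (adjusted p = 5.46e-07), 4.29 in aNE_H (adjusted p = 1.02e-09), 5.87 in pNE_T (adjusted p = 8.41e-11), 3.43 in pNE_M (adjusted p = 4.48e-09) and 4.05 in pNE_H (adjusted p = 1.68e-09). In aNE_T it was not called. The media ranked as follows within each origin. For aNE-derived cells NR2F1 was 5.55-fold higher in hindbrain than in midbrain medium (adjusted p = 6.98e-07), and higher in midbrain than in forebrain medium (log2 1.73, adjusted p = 3.25e-06). For pNE-derived cells it was highest in forebrain medium, 5.85-fold above midbrain (adjusted p = 1.51e-07) and 3.68-fold above hindbrain medium (adjusted p = 5.86e-06).

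The balance of the COUP-TF pair shifted accordingly. NR2F1 was 0.686% of their summed TPM in aNE and 2.70% in pNE. It was 73.4% in pNE_T and 63.5% in pNE_M, so NR2F1 was the larger part in these, and 38.1% in pNE_H. In the aNE-derived cells it was 2.83% in aNE_T, 20.1% in aNE_M and 29.9% in aNE_H, so NR2F2 was the larger part in all 3.

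**Figure D3:**
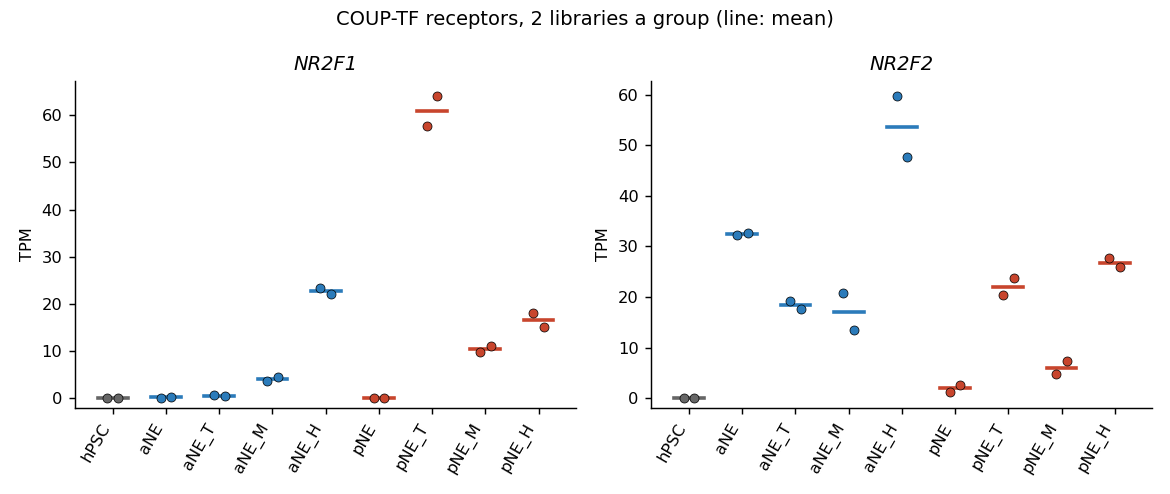
TPM of NR2F1 and NR2F2 in each of the 18 libraries by group, with points for libraries and lines for means of 2. NR2F2 is at 32.3 and 32.6 TPM in aNE and at 2.58 TPM or less in pNE, whereas NR2F1 is under 1 TPM in both and reaches 57.7 and 64.0 TPM in pNE_T.

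NR6A1, an orphan receptor known to repress pluripotency genes as embryonic stem cells differentiate, was the most abundant of the 10 in every group. It lies at chr9:124517275-124771310 on the minus strand. NR6A1 was at 134 and 142 TPM in hPSC, and its group means ran from 116 ± 5.5 TPM in aNE_T to 211 ± 2.9 TPM in pNE_H. It was not called in any pair of groups. It was at 136 and 125 TPM in aNE and at 175 and 202 TPM in pNE, values that did not overlap (log2 difference 0.53 ± 0.11, adjusted p = 0.00599). In aNE_H it was at 197 and 161 TPM, with a log2 difference of 0.61 ± 0.11 from aNE_T (adjusted p = 0.00112).

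NRIP1 (RIP140), a corepressor that nuclear receptors recruit when ligand is bound, was lower in hPSC than in every other library. It lies at chr21:14961235-15065936 on the minus strand and overlaps AF127577.4 on the same and AF127577.1 on the opposite strand. NRIP1 was at 5.19 and 5.63 TPM in hPSC, at 12.1 and 11.9 TPM in aNE and at 46.8 and 51.0 TPM in pNE. The increase from hPSC was 9.04-fold in pNE (log2 2.96 ± 0.11, adjusted p = 6.33e-10) and 2.22-fold in aNE (1.02 ± 0.11, adjusted p = 1.30e-05). The aNE value fell just under the fold threshold, to 0.97, without the first hPSC library, and was 0.95 with median-ratio scaling and 0.97 with quantile normalization. NRIP1 in pNE was 4.08-fold above aNE (log2 1.94 ± 0.11, adjusted p = 1.28e-07).

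NRIP1 had a narrower gap between origins at day 4 in midbrain and hindbrain media, most so in hindbrain medium. It was at 58.9 and 70.1 TPM in pNE_T against 20.9 and 19.7 TPM in aNE_T, a ratio of 3.18 (log2 1.62 ± 0.11, adjusted p = 2.58e-07). In midbrain medium it was at 35.3 and 35.9 TPM in pNE_M and 15.9 and 20.5 TPM in aNE_M, with a log2 difference of 0.94 ± 0.11 (adjusted p = 5.69e-05) that missed the fold threshold and was 1.11 without the second aNE_M library. In hindbrain medium it was at 73.3 and 78.6 TPM in pNE_H and 55.9 and 53.0 TPM in aNE_H (0.47, adjusted p = 0.00895, uncalled). The anterior cells had risen in this medium: NRIP1 was 4.54-fold higher in aNE_H than in aNE (log2 2.09, adjusted p = 2.37e-08), 2.69-fold higher than in aNE_T (1.38, adjusted p = 2.07e-06) and 2.99-fold higher than in aNE_M (1.54, adjusted p = 6.98e-07). With only the 4 libraries of aNE_H and aNE_M in the fit, the last had an adjusted p of 0.0516. In the posterior origin NRIP1 was 2.13-fold higher in pNE_H than in pNE_M (1.07, adjusted p = 1.94e-05).

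**Figure D4:**
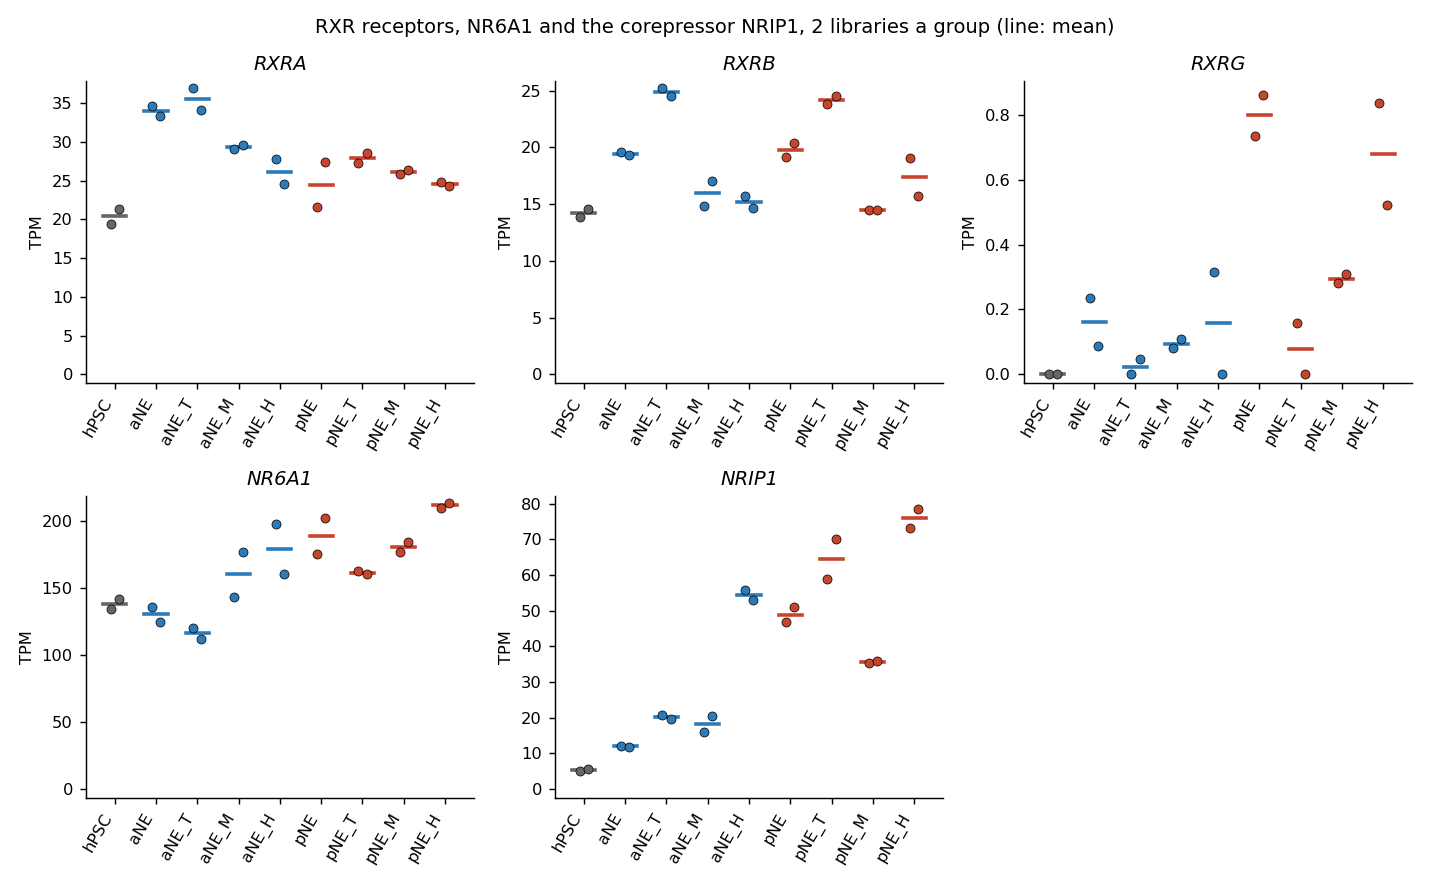
TPM of RXRA, RXRB, RXRG, NR6A1 and NRIP1 in each of the 18 libraries by group, with points for libraries and lines for means of 2. RXRA, RXRB and NR6A1 stay within a narrow range, RXRG does not exceed 0.860 TPM, and NRIP1 is lowest in hPSC, at 5.19 and 5.63 TPM.

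Counted over the 9 tested genes, 4 differed between origins at day 2 (3 higher in pNE and 1 lower), where 3.85% of all tested genes were called. At day 4 pNE-derived cells differed from aNE-derived cells in 4 of the 9 in forebrain medium, all higher (7.77% of all genes), in 5 in midbrain medium, 4 higher and 1 lower (5.74%), and in 2 in hindbrain medium, both higher (6.83%). RARA and RARB were called higher in the posterior cells in all 4 of these comparisons. Against hPSC, 2 genes were higher in aNE (13.5% of all genes) and 4 in pNE (12.9%). These comparisons share libraries, as do those of the media below.

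From day 2 to day 4 the counts in the anterior cells were 1 lower in aNE_T (9.03% of all genes), 1 higher in aNE_M (12.0%), and 2 higher and 1 lower in aNE_H (10.1%). The posterior cells had 3 higher and 1 lower in pNE_T (10.2%), 2 higher and 1 lower in pNE_M (12.7%), and 4 higher and 1 lower in pNE_H (12.3%). Among media within the anterior origin, midbrain against forebrain gave 1 higher (10.1%), hindbrain against forebrain 3 higher (6.60%) and hindbrain against midbrain 3 higher (4.92%). Within the posterior origin, the counts were 1 higher and 3 lower for midbrain against forebrain (8.60%), 1 lower for hindbrain against forebrain (5.03%), and 4 higher and 1 lower for hindbrain against midbrain (5.99%). Of 18 such comparisons, NR2F1 was called in 12, NR2F2 in 11, RARB in 10, NRIP1 in 8, and RARA and RARG in 7 each, whereas RXRA, RXRB and NR6A1 were called in 0. At smaller differences the adjusted p was under 0.05 in 5 of the 18 for RXRA, 11 for RXRB and 7 for NR6A1, with log2 differences of at most 0.71, 0.70 and 0.61 in size.

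**Figure D5:**
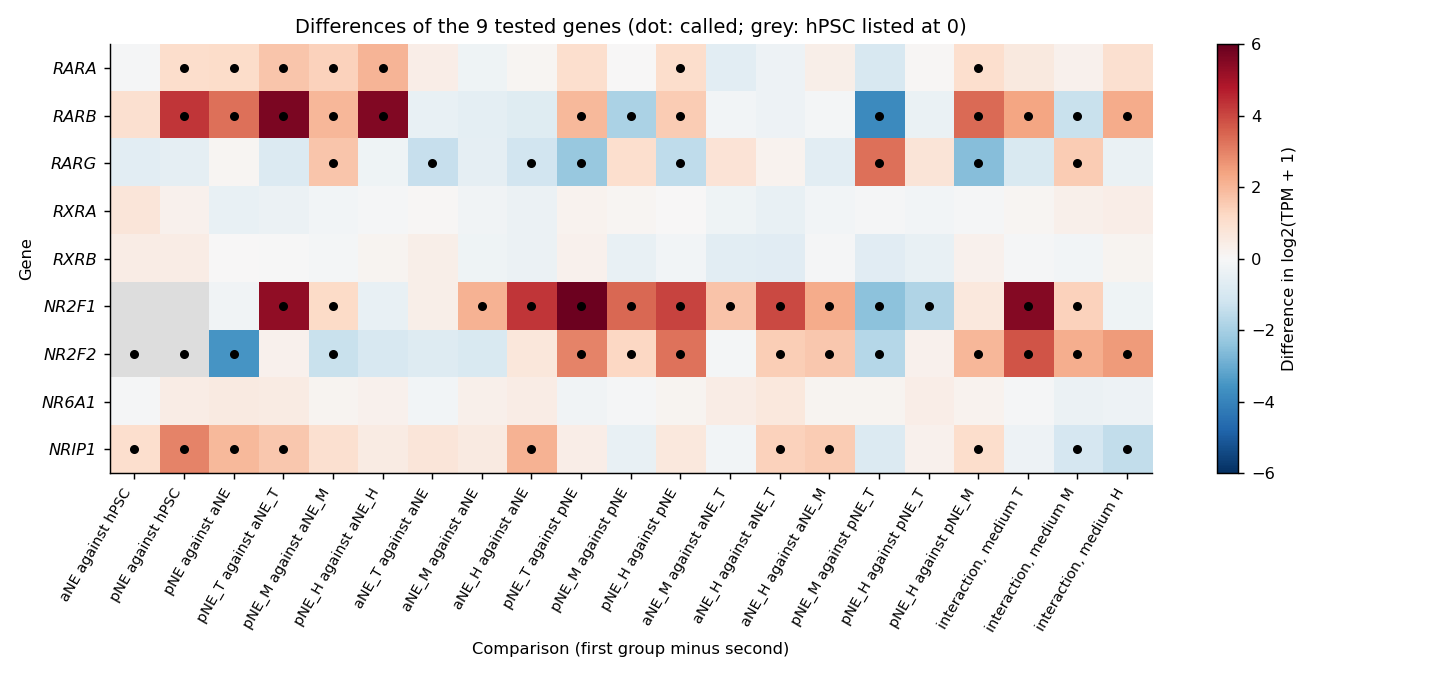
Log2 differences of log2(TPM + 1) for the 9 tested genes in the 18 comparisons of groups and 3 interactions, in colour, with calls marked. RARA and RARB are higher in the posterior cells in the 4 comparisons of origins, while RXRA, RXRB and NR6A1 have no call.

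A further test took the change from pNE to its day-4 group minus the change from aNE to its own. Plating density rose more in posterior than in anterior cells over this time, so origin and density cannot be told apart in it. In forebrain medium 3 of the 9 differed, all with a more positive change in posterior cells (7.14% of all genes). These were NR2F1 by 5.53 ± 0.23 log2 units (adjusted p = 7.13e-09), NR2F2 by 3.77 ± 0.32 (adjusted p = 4.06e-06) and RARB by 2.35 ± 0.21 (adjusted p = 6.73e-06). From aNE to aNE_T, NR2F2 changed by -0.79 (adjusted p = 0.0194) and RARB by -0.42 (adjusted p = 0.0502), both uncalled. In midbrain medium 5 differed, 3 upward and 2 downward (7.02%). RARG, NR2F1 and NR2F2 were the upward ones, and RARB (-1.33 ± 0.21, adjusted p = 8.70e-04) and NRIP1 (-1.002 ± 0.16, adjusted p = 8.75e-04) the downward ones. The NRIP1 value kept its call in 10 of 16 alternatives and lay between -0.83 and -0.99 in the other 6. The 10 include dropping the fold threshold, where the call could not be lost. The RARB value rests on the pseudocount, since aNE and aNE_M were near or below 1 TPM: with 0.1 in place of 1 it was -0.91 (adjusted p = 0.187). In hindbrain medium 3 differed, 2 upward and 1 downward (7.83%): NR2F2, RARB and, downward, NRIP1. RARA differed in 0 of the 3 media, with 0.94 in hindbrain medium (adjusted p = 0.00364) the nearest to a call; without the second pNE library that value was 1.19 (adjusted p = 1.61e-04).

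Other genes of retinoid signalling were counted by list. Of 15 genes known to respond to retinoic acid, 13 were tested, and 6 were higher in pNE than in aNE with 0 lower (median log2 difference 0.95, against -0.01 over all genes, of which 3.85% were called). At day 4, 10 were higher in posterior cells in forebrain medium (median 3.57, against -0.05 over all genes, 7.77% called), 12 in midbrain medium (3.85, against -0.04, 5.74% called) and 10 in hindbrain medium (3.34, against -0.04, 6.83% called), with 0 lower in each. HOXB1, a hindbrain homeobox gene that responds to retinoic acid, was at 136 ± 15 TPM in pNE_T, 343 ± 4.6 in pNE_M and 330 ± 25 in pNE_H. CDX1, a caudal homeobox gene, was at 113 ± 20 TPM in pNE_M and under 1 TPM in the other posterior groups.

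The next list shares genes with the previous one, CYP26A1 and DHRS3 among them. Of 14 genes for retinoid synthesis, transport and breakdown, 5 were higher and 0 lower in pNE than in aNE, with a median difference of 0.76 (-0.01 over all genes, 3.85% called). In forebrain medium 8 were higher and 0 lower in posterior cells (median 1.40, against -0.05 over all genes, 7.77% called). In midbrain medium 5 were higher and 1 lower (0.28, against -0.04, 5.74% called), and in hindbrain medium 6 higher and 0 lower (0.57, against -0.04, 6.83% called). DHRS3, which reduces retinaldehyde to retinol, was at 129 ± 13 TPM in pNE_T, 16.8 ± 0.24 in pNE_M and 106 ± 0.55 in pNE_H, and at 1.26 TPM or less in the aNE-derived groups. CRABP1, which carries retinoic acid in the cytoplasm, was the 1 lower gene in midbrain medium, at 8.89 ± 0.28 TPM in pNE_M and 53.0 ± 0.72 TPM in aNE_M. CYP26A1, which degrades retinoic acid, rose from hPSC in both origins at day 2, by log2 5.24 in aNE (adjusted p = 1.98e-10) and 5.91 in pNE (adjusted p = 5.48e-11). It then fell in each medium, with log2 differences of -3.28 to -3.54 from pNE and -5.45 to -6.42 from aNE. At day 4 CYP26A1 was at 29.3 to 35.3 TPM in the pNE-derived groups by mean and at 4.10 TPM or less in the aNE-derived ones.

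Of 19 coregulators of nuclear receptors, all tested, 0 were higher and 2 lower in pNE than in aNE (median -0.16, against -0.01 over all genes, of which 3.85% were called). These were TRIM24 (-1.05 ± 0.10, adjusted p = 8.54e-06) and TBL1XR1 (-1.11 ± 0.24, adjusted p = 0.00812). Between origins at day 4, TBL1XR1 was the 1 called, higher in pNE_H than in aNE_H (1.13 ± 0.24, adjusted p = 0.00453), where 6.83% of all genes were called. In forebrain and midbrain media 0 of the 19 were called between origins (7.77% and 5.74% of all genes).

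The genes with the most similar pattern were ranked by Pearson's r over the 9 group means of log2(TPM + 1), among 15859 candidates. With 9 points and this many candidates, a high r is a description only. RARA was nearest to ACHE (r = 0.984), and RARB to GALR2 (r = 0.985). RARG was nearest to ENDOG (r = 0.969), NR2F1 to PFN2 (r = 0.943), NR2F2 to DUOX1 (r = 0.955), NR6A1 to CYP51A1 (r = 0.949) and NRIP1 to UFM1 (r = 0.973). RXRA was nearest to RAB11FIP3 (r = 0.966). Ranking by Spearman's rho gave none of the same top 3 for RARA, RARB and RXRB, and shared 1 or 2 of them for the others. Among the 9 tested genes themselves the closest pair was RARA and RARB (r = 0.957), and RARG with NR2F2 was the most opposed (r = -0.66).

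The cultures differed in other markers too. Summed TPM of 6 neural ectoderm markers was 308 to 318 in hPSC, 644 to 972 in the day-2 groups, 1121 to 1551 in the forebrain media groups and 426 to 560 in the midbrain and hindbrain media groups. Summed TPM of 5 pluripotency markers was 4994 to 5009 in hPSC and at most 894 in the other groups. The gene SOX2 is in both of these lists, so their sums are not independent. Summed TPM of 9 neural crest markers was 217 to 236 in aNE_H, 183 to 201 in aNE_M, 143 to 152 in pNE_M and 92.1 to 95.8 in pNE_H, and 89.8 to 92.4 in aNE_T but 41.4 to 44.9 in pNE_T. At day 2 it was 25.5 to 26.8 in aNE and 29.8 to 38.0 in pNE. In hPSC, with 4 of the 9 at 1 TPM or more by mean, it was 59.7 to 65.9. That is above pNE_T, so the sum is no measure of neural crest content. NR2F1, NR2F2 and NRIP1 in the anterior cells were highest in aNE_H, as was this sum. The posterior cells did not share that order. Among their day-4 groups the sum was highest in pNE_M, where these genes were lowest. By mean they were at 10.4 TPM (NR2F1), 6.07 TPM (NR2F2) and 35.6 TPM (NRIP1) there. NR2F2 was at 32.4 TPM by mean in aNE, where the sum was lowest. Summed TPM of 8 mesoderm markers was 97.4 to 120.3 in aNE_M, 47.2 to 49.9 in pNE_M, 26.17 to 28.02 in pNE_T and 23.4 to 23.7 in pNE_H, and at most 8.26 in the other groups, with TBXT at 0 in aNE_H and pNE_H. Summed TPM of 7 surface ectoderm and placode markers was 726 to 808 in pNE and 327 to 346 in aNE. It was highest in pNE_M, at 1059 to 1134, where RARG was also highest. Only 3 of the 7 reached 1 TPM by mean in pNE_M, against 5 in pNE and 4 in aNE. In hPSC, with 2 of the 7 at that level, the sum was 418 to 424, so it is no measure of surface ectoderm or placode content. Summed TPM of 7 neuron markers was lower in posterior than in anterior cells at each stage. At day 2 it was 173 to 208 in pNE against 388 to 403 in aNE. In forebrain medium it was 44.5 to 49.0 in pNE_T against 167 to 187 in aNE_T. Midbrain medium gave 228 to 244 in pNE_M against 514 to 559 in aNE_M, and hindbrain medium 61.0 to 71.8 in pNE_H against 165 to 182 in aNE_H. However, only 1 of the 7 reached 1 TPM by mean in each posterior group and in aNE_H. The sum was 225 to 236 in hPSC, so it is no measure of neuron content. The part of these cells in the levels above was not tested. All 18 libraries correlated best with their own replicate (r = 0.982 to 0.987 across genes). The number of genes at 1 TPM or more was 13686 to 14679.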

How the data were processed

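The authors deposited a single table of TPM values. The submitters' processing notes name bcl2fastq, FastQC, Trim Galore, kallisto, deepTools and the hg38 build, with no roles. The annotation, the use of strand and the way transcripts were summed are not given in the sources used here, so reads of overlapping genes may not be separable. TPM keeps no depth, so no counting intervals are given. Sequences are from RefSeq (GRCh38.p14) and gene positions from GENCODE v29.

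Values were transformed to log2(TPM + 1). The limma package (version 3.58.1, R 4.3.3) fitted 1 mean per group to 18 libraries with 9 residual degrees of freedom and a variance trend, for the 17033 genes that reached 1 TPM in 2 or more libraries. P-values were two-sided and adjusted by Benjamini-Hochberg over these genes in each comparison, and a call needed a log2 difference of at least 1 in size and an adjusted p under 0.05. The 18 comparisons and 3 interactions came from this fit, and the remaining pairs of the 36 were used only to order levels. The fit was tested on simulated data. Errors are SDs for TPM and SEs for log2 differences. Named genes are the members, for each list and comparison at most the 3 called genes with the largest differences, and genes most like each member by Pearson's r. NR2F6 was named after its values were seen. Some genes that the rule would name are not reported here. Members and lists were chosen with earlier results of these data known. Alternatives were a pseudocount of 0.1, quantile normalization, median-ratio scaling, no filter or one at 5 TPM, a replicate block, calls by adjusted p alone, a fit of the compared groups only, and leaving out each library.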

Additional observations from a re-analysis of the deposited data

Results flagged for a closer look

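The results below were picked out because the change from day 2 to day 4 in a medium differed between the origins, by the limma interaction. Each value is the log2 change of pNE-derived cells minus that of aNE-derived cells. Plating density rose more in the pNE-derived cells, so origin and density cannot be told apart in these values.

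In forebrain medium NR2F1 differed by 5.53 (adjusted p = 7.13e-09), NR2F2 by 3.77 (adjusted p = 4.06e-06) and RARB by 2.35 (adjusted p = 6.73e-06). NR2F1 went from under 1 TPM in both libraries of pNE to 57.7 and 64.0 TPM in pNE_T and stayed under 1 TPM in aNE_T.

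In midbrain medium NR2F2 differed by 2.18 (adjusted p = 5.03e-04), RARG by 1.53 (adjusted p = 7.11e-04) and NR2F1 by 1.36 (adjusted p = 0.00137), while RARB differed by -1.33 (adjusted p = 8.70e-04) and NRIP1 by -1.002 (adjusted p = 8.75e-04). NRIP1 sits at the fold threshold, and RARB lost its call with a pseudocount of 0.1 (-0.91, limma adjusted p = 0.187).

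In hindbrain medium NR2F2 differed by 2.56 (adjusted p = 1.19e-04), RARB by 2.22 (adjusted p = 1.07e-05) and NRIP1 by -1.47 (adjusted p = 3.35e-05). For NR2F2 the day-2 gap between origins, 32.3 and 32.6 TPM in aNE against 1.35 and 2.58 TPM in pNE, is part of all 3 of its values. With 2 libraries a group, no library could be tested as standing apart from its group.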

How the results depend on the processing

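Of 66 called differences of single genes, tried under 836 alternatives in all, 809 kept their call, 27 lost it and 0 reversed. The 809 include 66 by adjusted p alone, which drops the fold threshold from the same fit, so no call could be lost there. With the replicate block all 66 kept their call and the count among the 9 genes stayed equal in 21 of 21 comparisons, while the count over all genes was 0.989 to 1.01 times the main one; replicate numbers did not pair the libraries, with correlations of deviations from -0.09 to 0.08 over 36 pairs of groups. The uncalled RARG difference of pNE against aNE was between -0.033 and 0.26 when 1 library was left out, the former without pNE replicate 2.

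Counts among the 9 genes that moved by more than 1.5 times are given here; counts also moved by less. Of 21 counts, 8 changed with a pseudocount of 0.1, 5 with median-ratio scaling, 6 with quantile normalization, 5 with a fit of the compared groups only and 20 by adjusted p alone. With a pseudocount of 0.1 they became 4 for aNE against hPSC, 2 for aNE_T against aNE and 2 for aNE_M against aNE. Median-ratio scaling and quantile normalization each gave 1 for aNE against hPSC. A fit of the compared groups only gave 3 for pNE_M against aNE_M and 1 for aNE_H against aNE_M. By adjusted p alone the counts were 6 for aNE and 7 for pNE against hPSC, 7 for pNE_T against aNE_T, 4 for pNE_H against aNE_H, 5, 6 and 8 for aNE_T, aNE_M and aNE_H against aNE, 7 and 6 for pNE_T and pNE_M against pNE, 5 and 6 for aNE_M and aNE_H against aNE_T, and 7 and 4 for pNE_M and pNE_H against pNE_T; over the remaining pairs of groups 85 calls became 129. Leaving out 1 library gave 1 to 3 for aNE against hPSC, 1 to 2 for aNE_M against aNE and 1 to 2 for pNE_H against pNE_T. Of these, hPSC replicate 1 gave the 1 and aNE replicate 2 the 3 for aNE against hPSC, aNE_M replicate 1 the 2 for aNE_M against aNE, and pNE_H replicate 1 the 2 for pNE_H against pNE_T. In 30 of 96 cases of leaving out 1 library the count changed, such as 2 to 4 for pNE_M against pNE and 2 to 3 for aNE_H against aNE. The NRIP1 interaction in midbrain medium dropped to between -0.83 and -0.99 in 6 alternatives.

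Over all genes, adjusted p alone gave 1.73 to 4.11 times as many calls (2103 to 7073 genes) and the fit of the compared groups only 0.445 to 0.945 times (355 to 2179). Quantile normalization moved the share of calls that were higher by up to 13.6 percentage points. Where only the compared groups were fitted, fewer libraries estimated the spread; for the other changes the cause was not tested.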

Other observations

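Other nuclear receptors, from a list of 39 of which 27 were tested, gave 2 higher in pNE than in aNE, NR3C1 and NR5A2, and 0 lower (median log2 difference 0.16, against -0.01 over all genes, of which 3.85% were called). NR3C1, the glucocorticoid receptor, was higher in posterior cells at each stage: the log2 difference was 1.47 ± 0.23 at day 2 (limma adjusted p = 8.40e-04), 3.29 ± 0.23 in forebrain medium (adjusted p = 2.84e-07), 2.42 ± 0.23 in midbrain medium (adjusted p = 7.58e-06) and 3.23 ± 0.23 in hindbrain medium (adjusted p = 4.17e-07). NR3C1 was at 5.64 ± 0.68 TPM in hPSC, 1.23 ± 0.49 in aNE and 5.15 ± 1.2 in pNE (SD, n = 2). It was at 11.1 ± 1.6 TPM in pNE_T and 12.7 ± 0.64 in pNE_H, and under 1 TPM in the aNE-derived groups at day 4. NR5A2, an orphan receptor that activates POU5F1 in stem cells, was at 4.50 ± 0.030 TPM in hPSC, 0.188 ± 0.066 in aNE and 3.54 ± 0.65 in pNE.

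NR2F6, the third COUP-TF relative, was between 95.0 and 166 TPM by group mean, a level above that of NR2F1 and NR2F2 in every group. NR4A1, an immediate early orphan receptor, was lower in pNE_T than in aNE_T by a log2 difference of -1.61 ± 0.11 (adjusted p = 1.62e-07). ESRRG, an orphan oestrogen-related receptor, was at 8.79 ± 2.3 TPM in pNE_H and 1.14 ± 0.64 TPM in aNE_H (log2 difference 2.21 ± 0.37, adjusted p = 7.46e-04).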
